A study of Canis lupus familiaris with 45 samples.

Results

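The genes described here encode the mitochondrial ribosomal proteins, taken as every gene on the array with a single symbol beginning MRPL or MRPS. Each gene was read at its brightest probe set, the one with the highest mean over the 45 arrays, and kept where that probe set was above log2 4 on at least 4 arrays. Of 73 such genes on the array, 72 were kept, out of 9113 named genes with a tested probe set. MRPL54 was left out, with a mean of 2.36 and 0 arrays above the limit. The gene just inside the limit was MRPS34, with a mean of 5.26 and 40 arrays above 4, and the other 71 were above it on all 45 arrays. By protein, 48 belong to the large subunit and 23 to the small subunit. MRPS36 carries the name but is known as a subunit of the 2-oxoglutarate dehydrogenase complex.

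Mitochondria translate the few proteins encoded by their own DNA, all of them subunits of the respiratory chain and ATP synthase, on a ribosome of their own. Every protein of that ribosome is encoded in the nucleus, made in the cytosol and imported, and many have no counterpart in bacterial ribosomes. In white fat, mitochondria supply ATP and the citrate from which fatty acids are made. In humans, inherited defects in several of these proteins cause combined oxidative phosphorylation deficiency.

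Subcutaneous adipose tissue was taken from 9 intact female beagles, 4 years old, after an overnight fast at weeks 0, 4, 8, 12 and 24, giving 45 arrays, 1 per dog and week. Dogs 2, 5, 6, 7 and 8 ate ad libitum after week 0 (n = 5), and dogs 1, 3, 4 and 9 were controls fed to hold their body weight (n = 4). All dogs ate the same performance diet. Whole tissue was measured, so a lower value can come from fewer cells of a type or from less RNA per cell, which cannot be told apart.

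Several properties of the arrays bear on the results. All 12 adipocyte markers were tested and their mean was 11.85 to 14.04 on every array. The mean of 24 tested skeletal muscle genes, of 26 listed, was 7.42 to 14.36 on 10 arrays and 3.69 to 5.34 on the other 35. Those 10 arrays are dogs 5, 7 and 8 at week 0 and dog 7 at weeks 8 and 12 among ad libitum dogs, and dogs 1 and 3 at week 0, dog 4 at week 8 and dogs 3 and 4 at week 24 among controls. Of 7 listed epithelial markers 1, EPCAM, was tested. At week 0 it read 5.9315 to 8.3248 in ad libitum dogs and 3.2983 to 6.1221 in control dogs. Every ad libitum dog was lower at week 24, where the arrays other than that of control dog 4 read 2.99 to 3.64. Control dog 4 read 13.86 at week 24. The highest EPCAM value at any other week was 8.9985, in control dog 9 at week 4. The week-24 array of dog 4 also had the lowest MRPS34 and MRPL53 of the 4 control arrays at that week. The part of epithelium in the results, the ad libitum changes from week 0 and the feeding effects included, was not tested. Over 100 probe sets that separate the dogs, the week-8 array labelled dog 5 matched dog 9 (r = 0.909) and the one labelled dog 9 matched dog 5 (r = 0.797), while 43 of 45 arrays matched their label. The actin signal at the 3' end minus that at the 5' end, a sign of RNA integrity, was 2.37 to 4.47 in ad libitum dogs and 3.18 to 5.86 in control dogs at week 24, against 1.35 to 4.29 over weeks 0 to 12. All 9 week-24 arrays form laboratory batch 6, which holds no other week, so a change from week 0 to week 24 and a change of batch cannot be told apart. The feeding groups at week 24 share that batch.

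At week 24, 3 of the 72 mitochondrial ribosomal protein genes were higher in ad libitum dogs than in control dogs, MRPL41, MRPS34 and MRPL13, and 0 were lower. The test was limma's, with adjusted p-values over all 22690 probe sets and a threshold of 0.05. Among all probe sets, 3.76% were called higher and 5.46% were called in either direction, so the 3 members are a share close to the background. The log2 difference was positive in 60 of 72 members (83.3%), against 50.7% of all probe sets, with a median of 0.26 over the members and 0.01 over all probe sets. Of the 72 genes, 15 (20.8%) had an unadjusted p under 0.05, against 22.7% of all probe sets. Every ad libitum dog was above every control dog for 7 genes (MRPL13, MRPL15, MRPL21, MRPL41, MRPL42, MRPL55 and MRPS34) and below for 0, so 9.72% of the members did not overlap, against 9.75% of all probe sets in either direction and 5.41% with the ad libitum dogs above.

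MRPL41, a protein of the large subunit, read 8.18, 7.65, 7.46, 7.41 and 7.74 (log2) in ad libitum dogs 2, 5, 6, 7 and 8 at week 24, against 7.11, 6.72, 6.79 and 6.82 in control dogs 1, 3, 4 and 9. The groups did not overlap, and dog 2 was the highest. The difference was 0.83 on the log2 scale (SE 0.241, 1.78-fold, adjusted p = 0.0376). The group means were 7.69 ± 0.31 in ad libitum dogs (SD, n = 5) and 6.86 ± 0.17 in control dogs (SD, n = 4).

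MRPS34, a protein of the small subunit in which human variants cause Leigh syndrome, read 6.61, 4.44, 4.41, 4.62 and 5.36 in ad libitum dogs at week 24, against 3.94, 3.89, 2.72 and 3.45 in control dogs. All 4 control arrays lay below the detection limit of 4. Set against that limit, the ad libitum mean of 5.09 was at least 2.13-fold higher (adjusted p = 0.0384 for the measured difference). Dog 2, at 6.61, raised that mean, and the ad libitum median of 4.62 lay nearer the limit. MRPS34 also varied most between dogs of the same group and week, with a within-group SD of 0.81 where the median gene had 0.33.

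MRPL13, whose bacterial counterpart is among the first proteins to bind the large ribosomal RNA, read 9.82, 9.35, 9.27, 9.45 and 9.52 in ad libitum dogs at week 24, against 8.95, 8.92, 9.08 and 9.08 in control dogs. The groups did not overlap, and the lowest ad libitum dog was dog 6. The difference was 0.48 (SE 0.145, adjusted p = 0.0461), and the second MRPL13 probe set stood at 0.33 (adjusted p = 0.146).

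**Figure D1:**
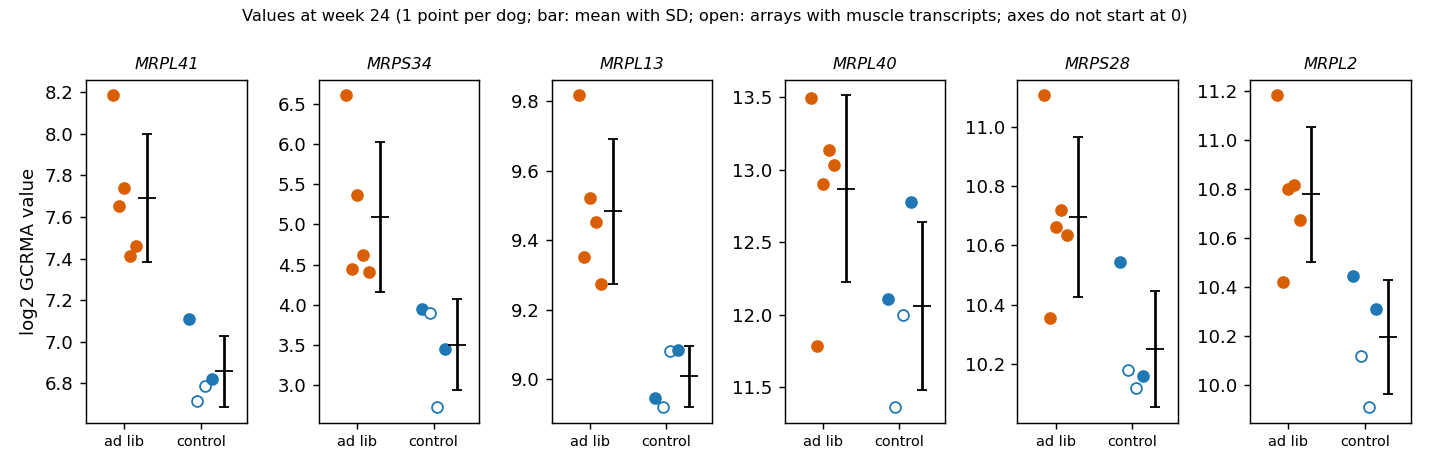
Log2 GCRMA values at week 24 of the 6 members with the smallest p, 1 point per dog, ad libitum left of control, with the mean and SD beside the points; open points are arrays that carry muscle transcripts. MRPL41, MRPS34 and MRPL13 do not overlap between the groups, whereas MRPL40, MRPS28 and MRPL2 do.

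The next 3 genes by p did not pass. MRPL40, of the central protuberance, read 13.49, 11.78, 13.03, 13.13 and 12.90 in ad libitum dogs, against 12.11, 11.36, 12.00 and 12.78 in control dogs, a difference of 0.80 (SE 0.283, adjusted p = 0.0829). Dog 5 was below 3 of the 4 control dogs. MRPS28 differed by 0.45 (SE 0.159, adjusted p = 0.0868) and MRPL2, a protein near the catalytic centre of the large subunit, by 0.58 (SE 0.210, adjusted p = 0.0917).

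Most of these genes have more than 1 probe set, and 72 further tested probe sets cover 55 of them. At week 24, 62 of the 72 had the sign of the brightest one. Of the 72, 5 were called higher in ad libitum dogs and 0 lower, where 3.76% of all probe sets were called higher. The 5 were both further probe sets of MRPS28 (0.66, adjusted p = 0.0349, and 0.58, adjusted p = 0.0394), and 1 each of MRPL30 (0.58, adjusted p = 0.0357), MRPL21 (0.66, adjusted p = 0.0352) and MRPS33 (1.04, adjusted p = 0.0378). Their genes were not called at the brightest probe set, where MRPL30 stood at 0.46 (adjusted p = 0.105), MRPL21 at 0.49 (adjusted p = 0.0922) and MRPS33 at 0.68 (adjusted p = 0.175).

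By role, the higher calls at week 24 were 2 of 48 large subunit genes and 1 of 23 small subunit genes, with medians of 0.22 and 0.29. None of the 3 stalk proteins, which recruit translation factors, was called: MRPL10 stood at 0.15, MRPL11 at 0.19 and MRPL12 at 0.44 (adjusted p = 0.794, 0.640 and 0.401). At the exit tunnel 0 of 6 were called, MRPL45, which anchors the ribosome to the inner membrane, standing at 0.11 (adjusted p = 0.794). In the central protuberance 0 of 5 were called and the median was -0.06. The release factor MRPL58, which frees stalled ribosomes, stood at 0.18 (adjusted p = 0.593). Of the 3 versions of MRPS18, MRPS18C stood at 0.46, MRPS18B at -0.14 and MRPS18A, which sits in the large subunit, at -0.25 (adjusted p = 0.291, 0.653 and 0.621). In the small subunit MRPS12, of the decoding site, stood at 0.22, MRPS16 at 0.34 and MRPS22 at -0.04 (adjusted p = 0.575, 0.368 and 0.951). MRPL3 stood at 0.10, MRPS30, a large subunit protein despite its name, at -0.06, and MRPS36 at 0.38 (adjusted p = 0.863, 0.904 and 0.451).

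Other measured properties of the arrays at week 24 are given beside these differences. At week 24 all 12 adipocyte markers were positive in ad libitum against control dogs (median 0.58), and LEP, LIPE and AQP7 were called higher. All 24 muscle genes were negative (median -3.22, 0 called). The list mean was 3.72 to 5.34 for muscle in ad libitum dogs and 3.83 to 10.92 in control dogs, and 12.00 to 14.04 for adipocytes in ad libitum dogs and 11.85 to 13.03 in control dogs. All 6 fibroblast markers were negative (median -0.49, 0 called), with a list mean of 13.31 to 14.72 in ad libitum dogs and 14.02 to 15.09 in control dogs. Of 5 T cell markers 4 were negative (median -0.45, 0 called), with a list mean of 3.24 to 4.90 in ad libitum dogs and 3.57 to 4.79 in control dogs. Their part in the result was not tested. With the actin 3' minus 5' difference as a covariate, 0 members were called, the members' median was 0.17 in place of 0.26, and MRPL41 stood at 0.62 and MRPL13 at 0.42. With the adipocyte mean as a covariate, 0 were called, the median was 0.09, and MRPL41 stood at 0.78 and MRPL13 at 0.34. Without the 10 arrays with muscle, 0 were called, the median was 0.21, and MRPL41 stood at 0.68 (adjusted p = 0.354) and MRPL13 at 0.49 (adjusted p = 0.201). That fit had 21 residual degrees of freedom in place of 31. The count was 9 without ad libitum dog 5, 1 without control dog 1 or 9, and 0 without any 1 of dogs 2, 3, 4, 7 and 8. These counts stand without the share of all probe sets called in the same fits.

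Relative to week 0, most mitochondrial ribosomal protein genes had lower values at week 24 in both feeding groups. In ad libitum dogs 7 of 72 (9.72%) fell past the threshold and 0 rose, against 2.4% of all probe sets called lower and 4.78% called in either direction. In control dogs 34 of 72 (47.2%) fell and 0 rose, against 4.71% of all probe sets called lower and 7.92% called in either direction. The median change was -0.38 in ad libitum dogs, with 59 of 72 negative, and -0.66 in control dogs, with 70 of 72 negative. The 7 genes that fell in ad libitum dogs were all among the 34 that fell in control dogs (100% of the first list and 20.6% of the second). The change was further down in control dogs for 62 members.

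**Figure D2:**
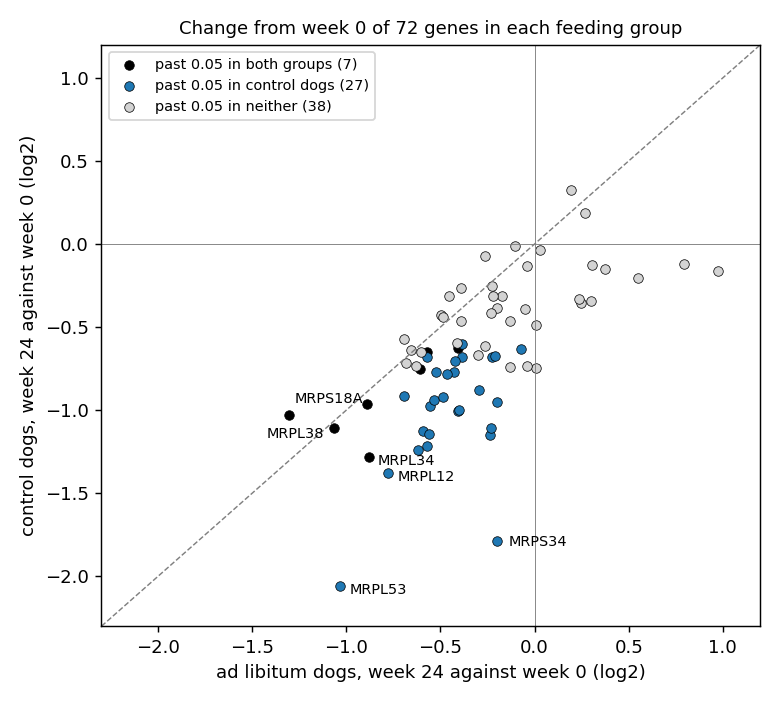
Log2 change from week 0 to week 24 in ad libitum dogs (horizontal) and control dogs (vertical), 1 point per gene, with the line of equal change. The 7 black points passed the threshold in both groups and the 27 blue points in control dogs alone, and most points lie below the line, but the difference between the groups was called for 0 genes.

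The test of that difference is the feeding effect at week 24, which subtracts the control dogs' change since week 0 from the ad libitum dogs' change, and it called 0 of 72 members and 5 of 22690 probe sets (0.022%). It was positive in 62 of 72 members, with a median of 0.34, and 7 (9.72%) had an unadjusted p under 0.05, against 10.2% of all probe sets. The 6 members with the smallest p were MRPL15 at 0.64 (SE 0.234), MRPL13 at 0.56 (SE 0.207), MRPS28 at 0.57 (SE 0.227), MRPS34 at 1.59 (SE 0.662; not exact, since its control arrays at week 24 lie below the detection limit), MRPL4 at 0.92 (SE 0.387) and MRPL40 at 0.88 (SE 0.404), with adjusted p of 0.357 to 0.465.

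Among the falls in control dogs measured above the detection limit at both weeks, that of MRPL53 was the largest. This protein of the large subunit, found at the base of the stalk, read 8.28, 5.97, 6.43, 7.00 and 7.58 at week 24 in ad libitum dogs, against 6.74, 8.08, 7.47, 8.94 and 8.78 at week 0. The change there was -1.03 (SE 0.417, adjusted p = 0.138), and dog 2 went the other way. In control dogs 1, 3, 4 and 9 it read 7.01, 6.91, 4.94 and 5.95 at week 24, against 7.82, 9.00, 7.96 and 8.20 at week 0. The change was -2.06 (SE 0.460, adjusted p = 0.00666), and every week-24 value was below every week-0 value.

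MRPS34 read 6.61, 4.44, 4.41, 4.62 and 5.36 at week 24 in ad libitum dogs, against 4.89, 4.12, 5.87, 5.38 and 5.79 at week 0 (-0.20, adjusted p = 0.824). In control dogs the week-24 values given above stood against 5.39, 5.74, 5.47 and 5.16 at week 0, so it was at least 2.72-fold lower, all 4 later values being below the detection limit (adjusted p = 0.0210 for the measured change).

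MRPL12, the stalk protein that contacts the translation factors, stood at -0.78 for ad libitum dogs (SE 0.292, adjusted p = 0.109). In control dogs it read 9.35, 9.11, 9.07 and 9.40 at week 24, against 10.90, 11.65, 10.19 and 9.99 at week 0, a change of -1.38 (SE 0.322, adjusted p = 0.00877). Dogs 1 and 3, the control dogs with the highest MRPL12 at week 0, are those whose week-0 arrays carry muscle transcripts. Among ad libitum dogs at week 0, dogs 5, 7 and 8, with muscle transcripts, read 9.81, 10.99 and 10.855. Dogs 2 and 6, without them, read 10.09 and 10.57. The part of muscle in the change of MRPL12 was not tested.

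MRPL34 fell in both groups. In ad libitum dogs it read 11.02, 9.96, 10.42, 10.55 and 10.71 at week 24, against 11.01, 10.98, 11.72, 11.97 and 11.64 at week 0 (-0.88, SE 0.234, adjusted p = 0.0262). It read 10.20, 10.17, 10.21 and 10.36 at week 24 in control dogs, against 11.62, 12.43, 11.11 and 11.05 at week 0 (-1.28, SE 0.258, adjusted p = 0.00362). Ad libitum dog 2 had about the same value at both weeks, while the control arrays did not overlap between the weeks.

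MRPS18A had the largest fall in ad libitum dogs. It read 10.003, 9.48, 9.96, 10.09 and 10.25 at week 24, against 11.11, 10.46, 11.75, 11.42 and 11.69 at week 0, so all 5 later values lay below all 5 earlier ones. The change was -1.30 (SE 0.264, adjusted p = 0.00429) in ad libitum dogs and -1.03 (SE 0.291, adjusted p = 0.0255) in control dogs. MRPL38, of the central protuberance, stood at -1.07 (SE 0.261, adjusted p = 0.0164) in ad libitum dogs and at -1.11 (SE 0.288, adjusted p = 0.0154) in control dogs. MRPL37 stood at -0.89 in ad libitum dogs (adjusted p = 0.0293) and -0.96 in control dogs (adjusted p = 0.0228). MRPL58 stood at -0.61 (adjusted p = 0.0358) and -0.75 (adjusted p = 0.0134) in the same order. The other 2 that fell in ad libitum dogs, MRPL21 and MRPL22, changed by -0.57 and -0.41.

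In ad libitum dogs 7 of 48 large subunit genes and 0 of 23 small subunit genes were called lower, with medians of -0.40 and -0.22. In control dogs 25 of 48 large subunit genes and 9 of 23 small subunit genes were called lower, with medians of -0.66 and -0.67. The calls were 1 of 6 exit tunnel genes in ad libitum dogs and 4 of 6 in control dogs, 1 of 5 central protuberance genes in ad libitum dogs and 3 of 5 in control dogs, and 0 of 3 stalk genes in ad libitum dogs and 1 of 3 in control dogs. Of 12 genes tied to human oxidative phosphorylation deficiency, 0 fell in ad libitum dogs and 5 in control dogs. MRPS22, 1 of those 12, stood at 0.19 in ad libitum dogs (adjusted p = 0.703) and at 0.33 in control dogs (adjusted p = 0.537), where 2 members had a positive change. Of the 72 further probe sets, 13 were called lower and 1 higher (MRPS31, 0.37) in ad libitum dogs, and 31 lower and 0 higher in control dogs. Among all probe sets, 2.4% were called lower in ad libitum dogs and 4.71% in control dogs.

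The remaining genes chosen for their roles changed as follows at week 24, in ad libitum dogs and then in control dogs. MRPL10 stood at -0.63 and -0.74, MRPL11 at -0.41 and -0.59, and MRPL3 at -0.23 and -0.42, none of them called. MRPL45 stood at -0.57 (adjusted p = 0.0819) and -0.68 (adjusted p = 0.0466), and MRPS16 at -0.46 (adjusted p = 0.186) and -0.78 (adjusted p = 0.0318). MRPS18C stood at -0.41 (adjusted p = 0.339) and -1.003 (adjusted p = 0.0205). At the brightest probe set, MRPS12 stood at -0.30 and -0.67, MRPS18B at -0.49 and -0.44, and MRPS30 at -0.66 and -0.64. MRPS36 stood at 0.01 and -0.49 there, and none of these genes was called in either group. Both further probe sets of MRPS18B, however, were called lower in each group. They stood at -0.95 and -0.83 in ad libitum dogs (adjusted p = 0.00613 and 0.0132). In control dogs they stood at -0.89 and -0.90 (adjusted p = 0.0121 and 0.0101).

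Between week 0 and week 24, 54, 61, 61 and 61 of 72 members were lower in ad libitum dogs 5, 6, 7 and 8, and 59, 70, 70 and 63 in control dogs 1, 3, 4 and 9, but 21 in ad libitum dog 2. Averaged over the 72 genes, each taken as its deviation from its own mean over 45 arrays, the week-24 arrays read 0.12, -0.54, -0.31, -0.15 and -0.20 in ad libitum dogs, against -0.45, -0.60, -0.57 and -0.39 in control dogs. Dog 2 was the only dog above 0 at week 24 and also had the highest adipocyte mean there, 14.04, while dog 5 was the lowest of the ad libitum dogs in both measures, with an adipocyte mean of 12.00.

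**Figure D3:**
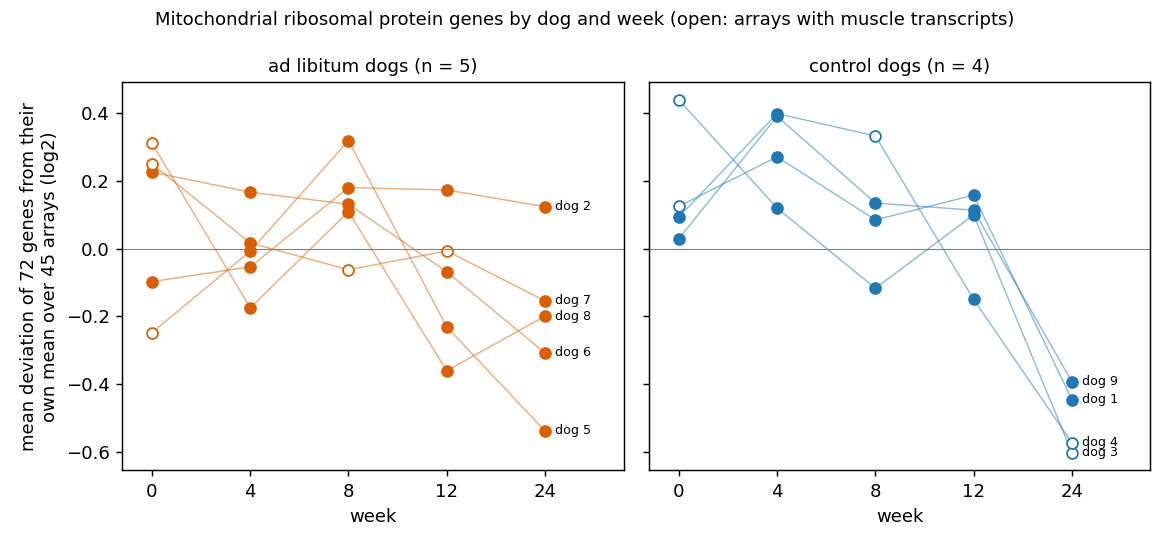
Mean log2 deviation of the 72 genes from their own means, by week, with 1 line per dog as labelled; the ad libitum dogs are on the left and the control dogs on the right, and open points are arrays that carry muscle transcripts. At week 24 the control dogs sit between -0.60 and -0.39 and the ad libitum dogs between -0.54 and 0.12; the week-8 points of dogs 5 and 9 may be exchanged.

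The counts of falls changed when the arrays with muscle were left out and when the actin measure was added to the fit. Muscle transcripts were on 3 of 5 ad libitum and 2 of 4 control arrays at week 0. Without the 10 arrays with muscle, 0 members were called in ad libitum dogs and 0 in control dogs. The medians were then -0.29 in ad libitum dogs and -0.48 in control dogs, which had 2 arrays at each week. That fit had 21 residual degrees of freedom in place of 31, so fewer calls can also come from fewer arrays. Of the dogs with no muscle on either array, ad libitum dogs 2 and 6 had median changes of 0.20 and -0.70, and control dog 9 had -0.39. With the actin difference as a covariate, 2 members were called lower in ad libitum dogs and 0 in control dogs, and the medians were -0.28 in ad libitum dogs and -0.52 in control dogs, against -0.38 and -0.66 without it. The ad libitum count was 13 without dog 2, and 2, 0, 1 and 1 without dogs 5, 6, 7 and 8. Leaving out control dog 9 took it to 3. Without control dog 3 the control count was 1, without dog 9 it was 10 and without dog 1 it was 15. The share of all probe sets called in these other fits is not given here.

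Before week 24, no member passed the threshold in any direct comparison of the feeding groups by limma. At week 0, before free feeding began, 25 of 72 were positive with a median of -0.07, 1 (1.39%, against 1.38% of all probe sets) had an unadjusted p under 0.05, and 0 of 22690 probe sets were called. At week 4 the median was -0.23 (58 negative, 0.0132% of all probe sets called), and 12 members (16.7%) had an unadjusted p under 0.05, against 9.08% of all probe sets. At week 8 it was 0.18 (49 positive, 1.42% called), with 10 members (13.9%) at an unadjusted p under 0.05, against 24.98% of all probe sets. At week 12 it was -0.28 (59 negative, 0.00441% called), with 14 members (19.4%) at an unadjusted p under 0.05, against 11.1% of all probe sets. The sign of the median was not the same at each week. At week 8, 4 members were called without control dog 1 and 1 without ad libitum dog 7, counts given without the share of all probe sets called in those fits.

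At week 4, 9 members had every ad libitum dog below every control dog: MRPL13, MRPL18, MRPL22, MRPL35, MRPL57, MRPL58, MRPS15, MRPS18B and MRPS18C. They are 12.5% of the members, where 2.77% of all probe sets lay below and 4.74% lay apart in either direction. These values carry no batch term, and no laboratory batch held both groups at week 4. Feeding and batch therefore cannot be told apart in this non-overlap. The actin 3' minus 5' difference at week 4 was 1.40 to 2.04 in ad libitum dogs and 2.76 to 3.39 in control dogs. Its part in the non-overlap was not tested. MRPL58 read 10.75, 11.40, 11.67, 11.17 and 10.70 in ad libitum dogs, against 11.85, 11.81, 12.02 and 11.75 in control dogs (-0.75, SE 0.213, adjusted p = 0.265). MRPL57 read 10.84, 10.97, 11.02, 10.98 and 10.54 in ad libitum dogs at week 4, against 11.23, 11.05, 11.17 and 11.58 in control dogs (-0.48, adjusted p = 0.461). MRPL57 was again below every control dog at week 12, at 10.92, 10.85, 10.67, 10.83 and 10.48 in ad libitum dogs, against 11.22, 11.65, 11.22 and 11.16 in control dogs (-0.60, SE 0.171, adjusted p = 0.451). MRPS18A was likewise apart at week 12, at -0.88 (SE 0.298, adjusted p = 0.451). These 2 are 2.78% of the members, where 1.01% of all probe sets lay below and 1.6% lay apart in either direction.

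At week 8 the groups did not overlap for 3 members (4.17%), against 3.76% of all probe sets, under labels that 2 of the 9 arrays go against. MRPL28 read 11.28, 11.57, 11.36, 10.90 and 11.22 in ad libitum dogs, against 10.76, 10.23, 10.82 and 10.90 in control dogs (0.61, SE 0.202, adjusted p = 0.0767). The highest of these values, 11.57, is that of the array labelled dog 5, which matches control dog 9, and the array labelled dog 9 is level with ad libitum dog 7 to the second decimal. MRPL19 and MRPS22 lay apart in the other direction. MRPS36 stood at -0.86 (SE 0.286, adjusted p = 0.0773). Without the arrays labelled dog 5 and dog 9, MRPL28 stood at 0.48, MRPL19 at -0.27, MRPS22 at -0.59 and MRPS36 at -0.83 (adjusted p = 0.334, 0.663, 0.423 and 0.247). At week 0 the smallest p values were those of MRPL21 at 0.42 and MRPL33 at -0.49, both with an adjusted p of 1.00.

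Within laboratory batches that held both groups, the members' median difference at week 0 was -0.003, -0.32 and 0.44 in batches 1, 2 and 4. At week 8 it was -0.09, 0.19, 0.02 and 0.12 in batches 1, 3, 4 and 5, and at week 12 it was -0.28 and -0.69 in batches 2 and 4. Each of these rests on 2 or 3 arrays. No batch held both groups at week 4, and at week 24 the whole comparison lies in batch 6.

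The feeding effect averaged over weeks 4, 8, 12 and 24 called 0 members and 0 of 22690 probe sets, with 41 of 72 positive, a median of 0.03, and 2 members with an unadjusted p under 0.05 (2.78%, against 4.23% of all probe sets). Those were MRPL33 at 0.63 (SE 0.292) and MRPL57 at -0.40 (SE 0.184), followed by MRPL15 at 0.29, MRPS18A at -0.44, MRPS34 at 0.71 and MRPL14 at 0.37, each with an adjusted p of 1.00. The joint test of the 4 weekly effects called 0 members, 17 (23.6%) having an unadjusted p under 0.05 against 23.3% of all probe sets, and its lowest adjusted p was 0.146, for MRPL13 and MRPL57 (0.0132% of all probe sets called). The feeding effects at weeks 4, 8 and 12 called 0 members, as did the changes from week 0 to weeks 4, 8 and 12 in either group. Of all probe sets, 0 were called for those feeding effects, 0.498%, 6.73% and 0.802% for the ad libitum changes, and 0.00441%, 0% and 0% for the control changes. Members with an unadjusted p under 0.05 numbered 4, 1 and 3 for the feeding effects (5.56%, 1.39% and 4.17%, against 7.81%, 8.66% and 5.35% of all probe sets), 1, 7 and 11 for the ad libitum changes (1.39%, 9.72% and 15.3%, against 9.63%, 25.1% and 13.5%), and 13, 1 and 8 for the control changes (18.1%, 1.39% and 11.1%, against 24.1%, 1.42% and 17.8%) at those weeks. Leaving out ad libitum dog 8 brought 1 call in the feeding effect at week 8, 3 in the ad libitum change at week 4 and 11 at week 8, and leaving out control dog 1 brought 9 in the control change at week 4 and 11 at week 12. The share of all probe sets called without those dogs is not given here, so these counts do not set the members apart. The smallest p among the ad libitum changes were those of MRPL41 (0.52) and MRPL33 (0.48) at week 4, MRPS36 (-0.71) and MRPL11 (0.51) at week 8, and MRPS18A (-0.93) and MRPL34 (-0.77) at week 12. Among the control changes they were MRPL41 (0.85) and MRPS27 (0.80) at week 4, MRPL32 (0.44) and MRPL48 (-0.35) at week 8, and MRPL47 (-1.38) and MRPL1 (-1.46) at week 12.

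The other genes of mitochondrial gene expression are given by list. Of all probe sets, 5.46% were called between the groups at week 24. From week 0 to week 24, 4.78% were called in ad libitum dogs and 7.92% in control dogs. Of 5 ribosomal proteins under other names, 0 were called between the feeding groups at week 24, but 3 fell in control dogs from week 0: GADD45GIP1 changed by -1.05, AURKAIP1 by -0.95 and CHCHD1 by -0.64 (adjusted p = 0.0166, 0.0139 and 0.0166). Of 14 translation factors, 0 were called between the groups, and 1 fell in each feeding group: TUFM, the elongation factor that brings aminoacyl-tRNA, changed by -0.86 in ad libitum dogs (adjusted p = 0.0333), and its exchange factor TSFM by -0.70 in control dogs (adjusted p = 0.0130). Of 12 mitochondrial aminoacyl-tRNA synthetases, CARS2 was higher by 1.36 in ad libitum dogs than in control dogs at week 24 (adjusted p = 0.00798), and 0 changed from week 0 to week 24 in either group. Of 17 genes of assembly and rRNA modification, 0 were called between the groups, and from week 0 the helicase DDX28 changed by -1.33 in ad libitum dogs (adjusted p = 0.00849) and the assembly GTPase ERAL1 by -0.96 in control dogs (adjusted p = 0.00836). Of 10 genes of mitochondrial transcription and its nuclear regulators, 0 were called in these 3 comparisons at week 24.

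Some genes of these lists were called at earlier weeks. Of all probe sets, 1.42% were called between the groups at week 8. In ad libitum dogs 6.73% were called from week 0 to week 8 and 0.802% from week 0 to week 12. Between the groups at week 8, PTCD3, a small subunit protein under another name, stood at -0.89 (adjusted p = 0.0480) and GFM2, a factor of ribosome recycling, at -0.99 (adjusted p = 0.0432). Without the 2 week-8 arrays that match each other's dog, the adjusted p was 0.128 for PTCD3 and 0.0903 for GFM2. In ad libitum dogs from week 0 to week 8, PTCD3 changed by -1.01 (adjusted p = 0.0130) and GFM2 by -0.83 (adjusted p = 0.0192), and both were also called without those arrays (adjusted p = 0.0247 and 0.0489). Over the same interval DAP3 changed by 0.50, WARS2 by 0.84, MTIF2 by -1.49, MTRF1 by -1.21 and LRPPRC by -1.92 (adjusted p = 0.0321, 0.0260, 0.0267, 0.0337 and 0.0289). None of these 5 was called without those arrays (adjusted p = 0.0699 to 0.0906). PPARGC1B, a coactivator of mitochondrial genes, changed by -1.55 in ad libitum dogs from week 0 to week 12 (adjusted p = 0.0362).

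The mitochondrial ribosome makes the part of complex I that is encoded in mitochondrial DNA. The list given here, of symbols beginning NDUF, does not hold that part. Among 33 genes taken as complex I subunits by symbol alone, all 33 were positive at week 24 between ad libitum and control dogs (median 0.52). NDUFA7, NDUFA4 and NDUFB6 were called higher. A symbol does not settle that a gene, NDUFA4 among them, encodes a subunit of complex I. From week 0, 3 of 33 fell in ad libitum dogs (median -0.40) and 28 of 33 in control dogs (median -1.09). Of the 49 cytosolic ribosomal proteins, 1 was called lower and 0 higher between the groups at week 24 (RPL14, -0.40, adjusted p = 0.0425), with a median of -0.14. From week 0, 13 of 49 were called lower in ad libitum dogs (median -0.17) and 1 of 49 in control dogs (median 0.01). None of these differences between families was tested.

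Across the 45 arrays the members mostly moved together, as a description of these arrays. The correlation of each gene with the mean of the other members ran from -0.34 to 0.93, with a median of 0.73, and 54 of 72 were above 0.5. MRPL2 (0.93), MRPS14 (0.92), MRPL12 (0.91) and MRPL4 (0.91) followed the others most closely. The mean of the members had r = 0.95 with the mean of the complex I list, taken by symbol, over 45 arrays and 0.94 over the 35 without muscle. It had r = 0.50 with the adipocyte mean, -0.73 with the fibroblast mean and 0.31 with the cytosolic ribosomal protein mean. All of these share the same arrays and normalisation.

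A group of 10 genes did not follow the rest, with a correlation below 0.1: MRPS31, MRPL1, MRPL47, MRPS22, MRPS35, MRPL42, MRPL39, MRPS9, MRPS10 and MRPS36. They were set apart after their values were seen, so their values are a description with no test. Pairs of the 10 correlated at 0.52 to 0.94 (median 0.78). Their mean had r = 0.71 with the array's median over all tested probe sets, while the mean of the other 62 had r = -0.64 with it. The 10 contributed 0 of the 7 falls in ad libitum dogs and 0 of the 34 in control dogs. The week-24 arrays entered the correlation that set the 10 apart, so the choice itself partly fixes these counts. Between the feeding groups all 10 were negative at week 8, with a median of -0.70, where the other 62 had 0.20. The size of this depends in part on the arrays labelled dog 5 and dog 9. Without those arrays 8 of 10 were negative, and the medians were -0.37 for the 10 and 0.03 for the other 62. The array labelled dog 5 had the lowest mean of the 10 at week 8, -0.95, which is the deviation from each gene's mean over 45 arrays. At week 12, 8 of 10 were positive with a median of 0.48, where the other 62 had -0.32, and at week 24 the medians were 0.39 and 0.23. MRPS31 read 12.07, 11.33, 11.94, 12.25 and 12.03 in ad libitum dogs at week 24, against 11.10, 10.9995, 10.71 and 11.34 in control dogs (0.89, SE 0.530, adjusted p = 0.325). Ad libitum dog 5 and control dog 9 were nearly level. The second MRPS31 probe set stood at 0.02 in the same comparison (SE 0.116, adjusted p = 0.957).

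**Figure D4:**
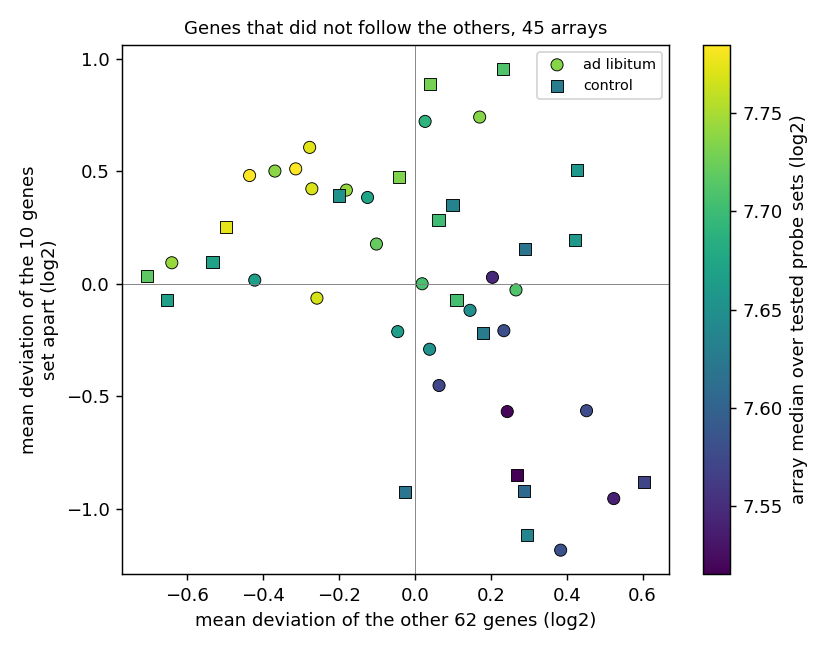
Mean log2 deviation of the 10 genes set apart (vertical) against that of the other 62 genes (horizontal), 1 point per array, coloured by the array's median over tested probe sets; circles are ad libitum and squares control dogs. The 10 genes run from -1.18 to 0.96 and the other 62 from -0.70 to 0.60 over the 45 arrays, and the darker points, with low array medians, lie mostly at the lower right.

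Between dogs of the same group and week, the SD of single members ran from 0.16 for MRPS23 to 0.81 for MRPS34 and MRPS10. The brightest probe sets were those of MRPL36 (mean 13.55), MRPL40 (13.16) and MRPS16 (12.88), and the dimmest kept were MRPS34 (5.26) and MRPS10 (7.33). Brightness depends on the probes, so it gives no order of expression between genes.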

How the data were processed

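The authors deposited GCRMA expression values, 1 per probe set and array, which were read here as log2 values because they ran from 0.42 to 17.51, and GCRMA is named without a version per the submitters' processing notes. Any batch correction is not given in the sources used here. RNA was biotin-labelled by the 1-cycle 3' method, per the labels' protocols. Symbols came from the platform's annotation table, and 67 of 73 genes matched a RefSeq table by identifier and 73 by symbol. Promoter and protein sequences were not used here.

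A probe set was tested when above log2 4 on at least 4 of 45 arrays, which kept 22690 of 42924. In R 4.3.3, limma 3.58.1 with statmod 1.5.0 fitted 10 group-by-week means and a batch term (batches 1 to 5 summing to 0), with the dog as a random block (correlation 0.00562, 31 residual degrees of freedom), Benjamini-Hochberg over all probe sets and a threshold of 0.05. The labels' animal id pairs arrays across weeks: deviations from group means correlated at a median of 0.12 between arrays of 1 dog and -0.03 between dogs. An array was called muscle-carrying above a list mean of log2 7. The fit was tested on simulated data. The number of arrays limits the precision.

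Members and gene lists were chosen with earlier results of these data known. Named are up to 10 members of each sign past the threshold at week 24 and for the feeding effects, up to 4 for other comparisons, the 6 or 2 with the smallest p where too few pass, 14 measured genes with known roles, and up to 3 per other list. Members named for non-overlap, other probe sets or correlation were chosen after their values were seen. In all, 23 alternatives were planned and 1 was added after seeing the data (the adipocyte mean as a covariate).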

Additional observations from a re-analysis of the deposited data

Results flagged for a closer look

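One value among the named genes stood far from its group. MRPS28 read 10.54 in control dog 1 at week 24, while the other 3 control dogs read 10.12 to 10.18, and its gap to the nearest of them was large for the range of the 4 arrays. Chance gives such a value in about 1 in 20 groups, and 58 groups were examined.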

How the results depend on the processing

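With any alternative, 0 members were called for the feeding effect at week 24, for the averaged feeding effect, or between the groups at weeks 0 and 12. The counts below are given without the share of all probe sets called in the same setting, so they do not set the members apart. Between ad libitum and control dogs at week 24 the 3 calls became 0 with no batch term, with quantile normalisation, with array medians aligned, without the arrays with muscle, with the actin or adipocyte covariate and with the weeks compared alone, and 1 with no filter on low values, and leaving out 1 dog gave 0 to 9. At week 4, 2 were called with no batch term. At week 8, leaving out 1 dog gave 0 to 4. For ad libitum week 24 against week 0, the 7 calls became 4 with no filter on low values, 0 without the arrays with muscle, 4 with the muscle covariate, 11 when the 2 mismatched week-8 arrays were left out, 2 with the actin covariate, 15 with the adipocyte covariate and 11 with the mean over a gene's probe sets, and leaving out 1 dog gave 0 to 13. For control dogs the 34 calls became 0 without the arrays with muscle, 0 with the actin covariate and 20 with the adipocyte covariate, and leaving out 1 dog gave 1 to 38. Without the replicate block for dog the counts at week 24 were 3 between the groups, 6 in ad libitum dogs and 33 in control dogs, and with the dog as a fixed block they were 6 and 32 in ad libitum and control dogs. The median over the members kept its sign in the week-24 comparisons, at 0.09 to 0.35 between the groups, -0.50 to -0.20 in ad libitum dogs and -0.74 to -0.48 in control dogs.

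Some genes that were not called changed sign. Between the groups at week 24, the adipocyte covariate gave -0.194 for MRPL3, -0.0762 for MRPL45 and -0.0160 for MRPL58, the mean over probe sets gave 0.0209 for MRPS18B, and the actin covariate gave 0.0658 for MRPS22. Leaving out 1 dog gave -0.0104 to 0.223 for MRPL45, -0.130 to 0.0998 for MRPS22 and -0.185 to 0.0609 for MRPS30. In ad libitum dogs from week 0, it gave -0.499 to 0.0174 for MRPS12 and -0.144 to 0.149 for MRPS36. MRPS36 there stood at -0.0446 with no batch term or with the weeks compared alone, -0.027 with quantile normalisation, -0.0532 with medians aligned and -0.134 with the actin covariate. The cause of these changes was not tested. The joint test was run in 1 setting, and direct comparisons could not be fitted with the dog as a fixed block. The few arrays, and values near the detection limit for MRPS34, limit the precision.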
